A study of Mus musculus with 6 samples.

Results

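The genes described are 34 genes of endoplasmic reticulum (ER) protein folding, the unfolded protein response and the ATF4 response, taken from the 30889 genes of the deposited table by gene symbol. They comprise 6 sensors and transcription factors, 14 folding genes, 7 genes of ER-associated degradation and 7 target genes of ATF4. Polyadenylated RNA was sequenced from mouse liver after 14 days of oral treatment, in 3 libraries from mice given an aqueous extract of the herb Emilia sonchifolia and 3 libraries from mice given phosphate buffered saline as control. The strain, sex and age of the mice, the dose, and whether each library is from a separate animal are not stated in the labels, so the p-values reflect only how these libraries vary, and part of that may be technical. In bulk liver RNA, fewer cells of a type and less RNA per cell cannot be told apart.

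Secreted and membrane proteins fold in the ER, and hepatocytes, which secrete most plasma proteins, carry a large ER. When unfolded proteins build up, 3 membrane sensors respond: ATF6 and IRE1 (encoded by Ern1) act through ATF6 itself and the spliced form of XBP1 to raise chaperone and degradation genes. The kinase PERK (encoded by Eif2ak3) phosphorylates eIF2, which lowers general translation and raises translation of ATF4. ATF4 is also raised by amino acid shortage and other stresses, and it drives genes of amino acid supply as well as the death-linked factor CHOP (encoded by Ddit3). Much of this regulation is by splicing, cleavage, phosphorylation and translation, none of which gene-level RNA values measure.

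In extract livers 9 of the 34 genes rose and 10 fell, and 15 did not pass (edgeR quasi-likelihood test, Benjamini-Hochberg adjusted p under 0.05 over all 18071 genes tested). Of all genes tested, 26.9% were called, 14.2% higher and 12.8% lower; among genes with a group mean of at least 5 FPKM (fragments scaled for gene length and library size), 46.7% were called, 27.3% higher and 19.4% lower. Of the 27 listed genes at that level, 17 were called, or 63.0%, 8 higher and 9 lower. Most changes were small: only Calr, Herpud1, Atf6 and Asns were called with a log2 fold change of at least 0.5 in size, which is 11.8% of the 34, against 12.7% of all genes tested. FPKM of the groups did not overlap for 23 of the 34, or 67.6%, against 44.6% of all genes tested. Of the 27 at 5 FPKM or more, 77.8% did not overlap, against 62.4% of all genes at that level. With limma on log2(FPKM + 0.5), 7 of the 34 were higher and 12 lower, and 40.7% of all calls were higher, against 52.6% with edgeR. With FPKM first divided by edgeR's library scaling factors (TMM), limma gave 9 higher and 10 lower, and 50.4% of all calls were higher.

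**Figure D1:**
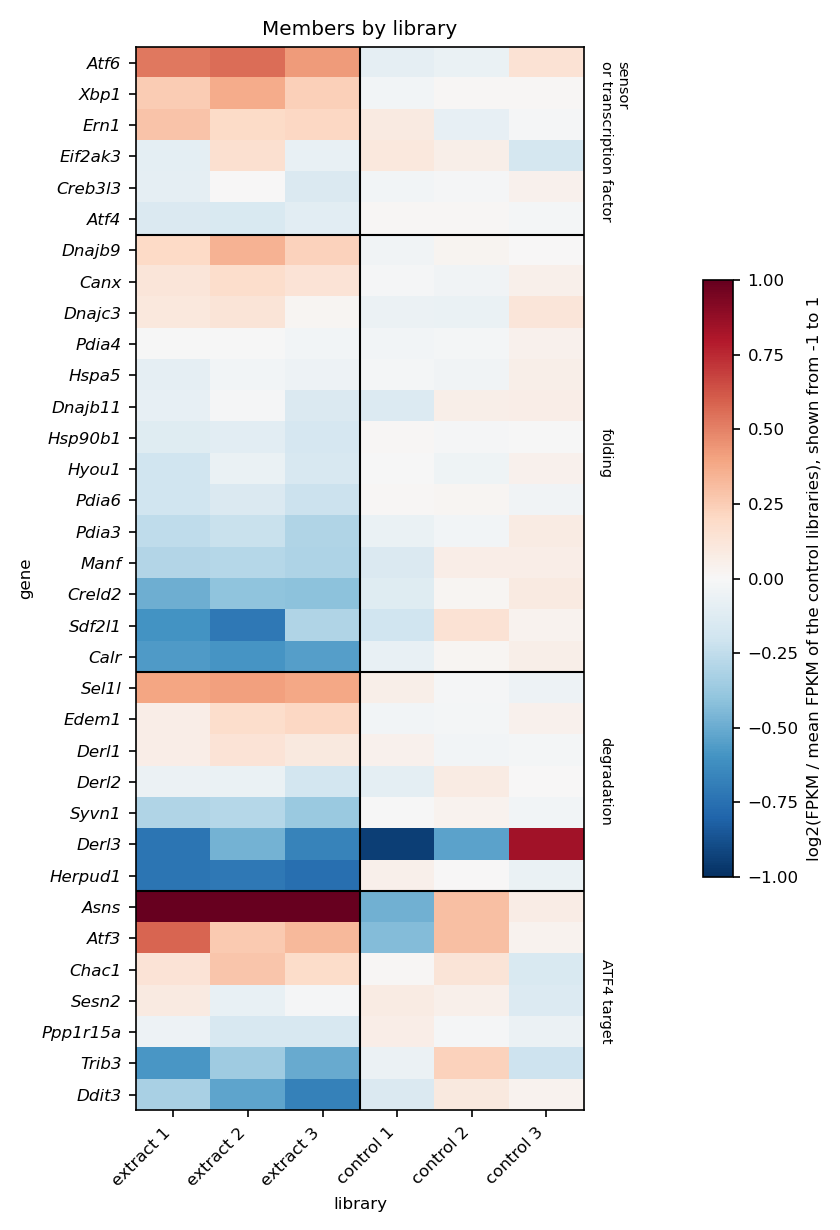
Each row is a gene, grouped by role, and each column a library, extract left of control. Color is the log2 ratio of the library's FPKM to the mean FPKM of the 3 control libraries, shown from -1 to 1. Herpud1 and Calr are lower, and Asns, Atf6 and Sel1l higher, in all 3 extract libraries.

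Libraries held 51219533 to 61432016 estimated counts. Fold changes in these livers ran with transcript length. Among genes at 5 FPKM or more the median log2 fold change was -0.17 for the 722 genes whose longest annotated transcript is under 1000 nucleotides, and 0.24 for the 285 genes of 6000 nucleotides or more. The listed genes called higher had longest transcripts of 2016 to 7246 nucleotides (median 4281), those called lower 969 to 4080 (median 2100). With an offset for each library's length trend in edgeR, chosen after seeing the data, 25.1% of all genes and 16 of the 34 were called, 7 higher and 9 lower. Pdia6, Sdf2l1, Ddit3, Edem1 and Ern1 were not called with it, while Hsp90b1 and Hyou1 were called lower. After the offset the median log2 fold change was still 0.090 for genes of 6000 nucleotides or more, and 0.012 for those under 1000. Atf6, Sel1l, Ern1 and Edem1 are in that longest group. The part of length in the fold changes was not tested beyond this fit.

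**Figure D2:**
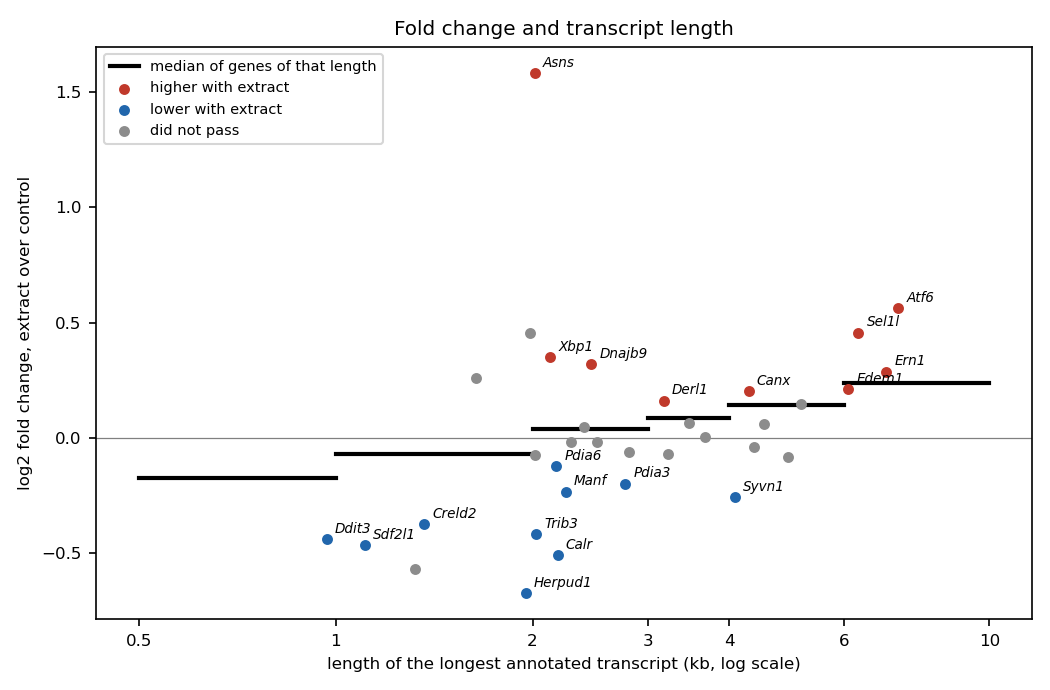
Log2 fold change, extract over control, of the 34 genes against the length of the longest annotated transcript (kb, log scale). Black bars are the medians of genes at 5 FPKM or more in length bins, drawn from 0.5 kb for the shortest and to 10 kb for the longest bin; the 4 called genes of over 6 kb (Atf6, Sel1l, Ern1, Edem1) were all higher.

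Other cell types moved with the groups. All 10 Kupffer cell markers, 5 of 5 erythroid, 6 of 6 neutrophil and 6 of 12 tested plasma and B cell markers were lower in extract livers, and their part in the results below was not tested. The plasma and B cell markers, whose cells have a high ER load, summed to 91.4, 91.2 and 98.0 FPKM in extract libraries and 179.7, 200.4 and 144 FPKM in control libraries. Sdc1, which was not called, gave 49.3 to 53.6 FPKM of the extract sums and 48.9 to 56.5 FPKM of the control sums. Without Sdc1, a split chosen after its values were seen, the markers summed to 42.03, 37.6 and 47.5 FPKM in extract libraries and 130.8, 149.7 and 87.7 FPKM in control libraries. Igkc alone gave 35.0, 30.8 and 39.5 FPKM of the extract sums and 104.4, 122.8 and 75.1 FPKM of the control sums. Prdm1, Irf4, Pou2af1, Cd79a and Cd79b were not called. Tnfrsf17, a plasma cell receptor, was at 0 in all libraries but control library 2. Kupffer markers summed to 275 to 292 FPKM in extract and 457 to 480.4 FPKM in control libraries, erythroid markers to 198 to 235.5 FPKM in extract and 1271 to 1614 FPKM in control libraries, and neutrophil markers to 8.51 to 12.02 FPKM in extract and 52.1 to 110.4 FPKM in control libraries. Jchain, which links antibody chains, averaged 2.84 FPKM in extract and 6.47 FPKM in control livers. Pancreas acinar markers, also from an ER-rich cell, summed to 111.8, 111 and 119.5 FPKM in extract libraries and 13.9, 25.2 and 118 FPKM in control libraries, with 9 and 7 of the 16 at 0 in control libraries 1 and 2, and 0 of 16 were called (edgeR unadjusted p under 0.05, 0; DESeq2, 0; limma, 0). Of 8 hepatocyte markers, 2 were higher, 3 lower and 3 not called. Apob and Ahsg were at 0.31 and 0.33 on the log2 scale, and Ttr, Apoa1 and Apoa2 at -0.19, -0.18 and -0.44. Hepatocyte markers summed to 49820 to 50270 FPKM in extract and 51150 to 60450 FPKM in control libraries. Alb, which was not called, averaged 26020 FPKM in extract and 29910 FPKM in control livers.

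Known response elements were looked up in the RefSeq promoters of these genes (GRCm38.p6, 250 bases before to 50 from the start), which cover 30 of the 34 genes (not Hyou1, Manf, Derl1 and Atf6). The ER stress response element, CCAAT and CCACG with 9 bases between them, on either strand, is bound by ATF6 with NF-Y, and stood in 0.119% of 32851 windows and in 9 of the 30 genes: Calr, Canx, Creld2, Derl3, Dnajc3, Hsp90b1, Hspa5, Pdia6 and Syvn1. Its shorter form, ATTGG and CCACG with any 1 base between them, stood in 0.0365% of windows, and in Herpud1 and Dnajb11. The ATF4 element, searched as TGATGNAA, stood in 3.97% of windows and in Asns, Atf3, Chac1, Herpud1 and Trib3. The sequences below are the examples for which the fold changes differ, with the element in capitals.
Hspa5, chr2:34772020-34772048, plus strand: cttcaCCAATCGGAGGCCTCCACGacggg
Calr, chr8:84847070-84847098, minus strand: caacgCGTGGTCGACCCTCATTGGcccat
Canx, chr11:50325795-50325823, minus strand: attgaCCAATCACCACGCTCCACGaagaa
Syvn1, chr19:6046527-6046555, plus strand: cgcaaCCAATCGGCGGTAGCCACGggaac
Herpud1, shorter form, chr8:94386372-94386392, plus strand: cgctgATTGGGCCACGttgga
Herpud1, ATF4 element, chr8:94386312-94386329, plus strand: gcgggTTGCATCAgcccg
Asns, chr6:7693220-7693237, minus strand: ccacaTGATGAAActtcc
Chac1, chr2:119351044-119351061, plus strand: tgccgTTGCATCActcct

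Genes with the same element did not move alike. Of the 11 with the ER stress element in either form, Canx was higher, 5 were lower and 5 did not pass. Calr and Canx, both with the long form, went in opposite directions, and Hspa5, with the same form 47 to 65 bases before its start, did not pass. Of the 5 genes with the ATF4 element, Asns was higher, Herpud1 and Trib3 were lower, and Atf3 and Chac1 did not pass. Another 15 genes held neither of these elements nor TGACGTGG, and 5 of them were higher, 3 lower and 7 not called. A match is a description of the letters in the window, not of binding.

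Of the sensors and factors, Atf6, Xbp1 and Ern1 rose, and Eif2ak3, Atf4 and Creb3l3 did not pass. Atf6 (ENSMUSG00000026663, chr1:170704674-170867771), the membrane-held transcription factor, had 6.37, 6.497 and 5.94 FPKM in extract libraries and 4.15, 4.22 and 4.89 FPKM in control libraries. The groups did not overlap, and the log2 fold change was 0.56 ± 0.075 (SE) with an edgeR adjusted p of 0.00119. Xbp1 (ENSMUSG00000020484, chr11:5520659-5525893), whose spliced form drives degradation and folding genes, had 64.7, 70.3 and 64.1 FPKM in extract libraries and 53.3, 54.7 and 54.8 FPKM in control libraries. Its log2 fold change was 0.35 ± 0.043 (SE) with an edgeR adjusted p of 0.000809. With the length offset Atf6 stood at 0.41 and Xbp1 at 0.37 on the log2 scale, and both were still called.

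Ern1, the sensor that splices Xbp1, averaged 9.29 ± 0.317 FPKM in extract and 7.93 ± 0.470 FPKM in control libraries (SD, n = 3 each). Its log2 fold change was 0.29 ± 0.059 (SE) with an edgeR adjusted p of 0.00877, and 0.14 with the length offset (edgeR adjusted p = 0.0863); limma on FPKM without a filter gave 0.0509. Eif2ak3, the PERK kinase, averaged 2.64 ± 0.268 FPKM in extract and 2.64 ± 0.271 FPKM in control livers, and the groups overlapped. Atf4 RNA had 28.3, 28.3 and 29.2 FPKM in extract libraries and 31.6, 31.6 and 30.9 FPKM in control libraries, without overlap. It was not called by edgeR (log2 fold change -0.071, adjusted p = 0.259), but was by limma on log2(FPKM + 0.5) (adjusted p = 0.0319). With FPKM divided by the TMM factors, limma did not call it. Creb3l3, a liver-rich relative of ATF6, averaged 73.1 FPKM in extract and 77.1 FPKM in control livers, with overlap.

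**Figure D3:**
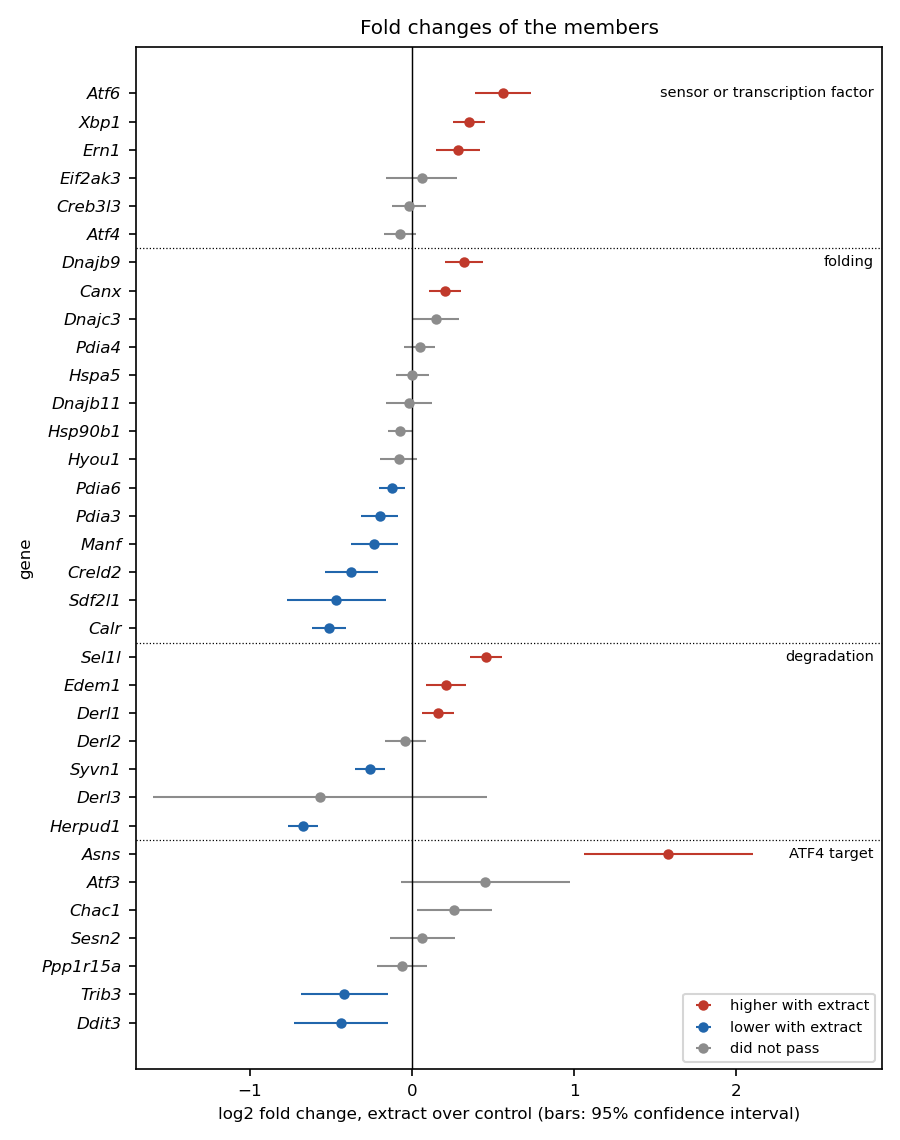
Log2 fold changes, extract over control, with 95% confidence intervals for the 34 genes, grouped by role. Asns, at 1.58, lies farthest from 0, and Herpud1, at -0.67, lowest.

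The folding group held 2 higher, 6 lower and 6 uncalled genes, with a median log2 fold change of -0.076, against -0.018 over all genes tested. Calreticulin (Calr, ENSMUSG00000003814, chr8:84841850-84846934), a calcium-binding lectin chaperone, had 165, 163 and 168 FPKM in extract libraries and 233, 248 and 255 FPKM in control libraries. Every extract library was below every control library, and the log2 fold change was -0.51 ± 0.046 (SE) with an edgeR adjusted p of 0.000183, 0.703-fold. Calnexin (Canx), its membrane-bound relative, had 50.9, 52.9 and 51.5 FPKM in extract libraries and 46.4, 45.7 and 48.6 FPKM in control libraries. It rose by 0.20 ± 0.043 on the log2 scale (SE) with an edgeR adjusted p of 0.0101. Both calls held in every alternative tried, so these partners of one lectin cycle went in opposite directions.

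The BiP gene Hspa5 (ENSMUSG00000026864, chr2:34771970-34777547), the central ER chaperone and the usual sign of ER stress, did not pass. It had 106, 110.3 and 108 FPKM in extract libraries and 111, 109.5 and 117 FPKM in control libraries, and the groups overlapped. Its log2 fold change was 0.0040, with a 95% confidence interval of -0.096 to 0.10 (edgeR adjusted p = 0.957). FPKM carry no TMM scaling, so fitted fold changes can differ from their ratios. Hsp90b1 (GRP94) averaged 145 FPKM in extract and 159 FPKM in control livers without overlap, and was not called by edgeR (log2 fold change -0.071, adjusted p = 0.168). It was called lower by limma on log2(FPKM + 0.5) (adjusted p = 0.0253) and in edgeR with the length offset (adjusted p = 0.0432). With FPKM divided by the TMM factors, limma did not call it (adjusted p = 0.128). Of its exon bases, 10.3% are shared with an opposite-strand pseudogene, and use of strand in the counting is not stated. Hyou1, a nucleotide exchange factor for BiP, was at -0.081 (adjusted p = 0.272), and was called with the length offset (-0.17, edgeR adjusted p = 0.0221). Pdia4 and Dnajb11, a disulfide isomerase and a BiP cochaperone, overlapped between groups and had adjusted p of 0.426 and 0.864.

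Dnajb9 (ERdj4), a BiP cochaperone that is a textbook target of XBP1, had 25.8, 28.7 and 26.4 FPKM in extract libraries and 22.03, 22.9 and 22.7 FPKM in control libraries, and rose by 0.32 ± 0.050 on the log2 scale (SE) with an edgeR adjusted p of 0.00252. Creld2, an ER-stress inducible secreted factor, had 14.4, 15.3 and 15.2 FPKM in extract libraries and 18.6, 20.5 and 21.5 FPKM in control libraries, and fell by 0.37 ± 0.072 (SE) with an edgeR adjusted p of 0.00675. The groups did not overlap for either gene, and both calls held in every alternative. Dnajc3 (p58IPK), a cochaperone that inhibits PERK, was at 0.15 (adjusted p = 0.123), and without control library 3 it was called at 0.22 (edgeR adjusted p = 0.00616).

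The other 4 lowered folding genes lost the call when single libraries were left out. Pdia3 (ERp57), the disulfide isomerase that works with calreticulin and calnexin, averaged 83.4 ± 2.15 FPKM in extract and 99.8 ± 5.32 FPKM in control libraries (SD, n = 3 each). Its log2 fold change was -0.20 (edgeR adjusted p = 0.0201). Without extract library 1, 2 or 3 its edgeR adjusted p was 0.0967, 0.0691 and 0.0779. Pdia6, at -0.12 (edgeR adjusted p = 0.0360), was lost without extract library 1, 2 or 3 or control library 1 or 2 (adjusted p 0.184, 0.0868, 0.123, 0.0744 and 0.0871) and without a filter on low counts (0.0559). Sdf2l1, a cochaperone of the BiP system, was at -0.47 (edgeR adjusted p = 0.0340) and was lost without extract library 1 or 2 or control library 2 or 3 (0.130, 0.124, 0.131 and 0.0823) and without the filter (0.0651). Manf, a secreted survival factor, was at -0.23 (edgeR adjusted p = 0.0285) and was lost without any extract library or control library 2 or 3 (0.111, 0.103, 0.0816, 0.107 and 0.0635) and without the filter (0.0560).

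**Figure D4:**
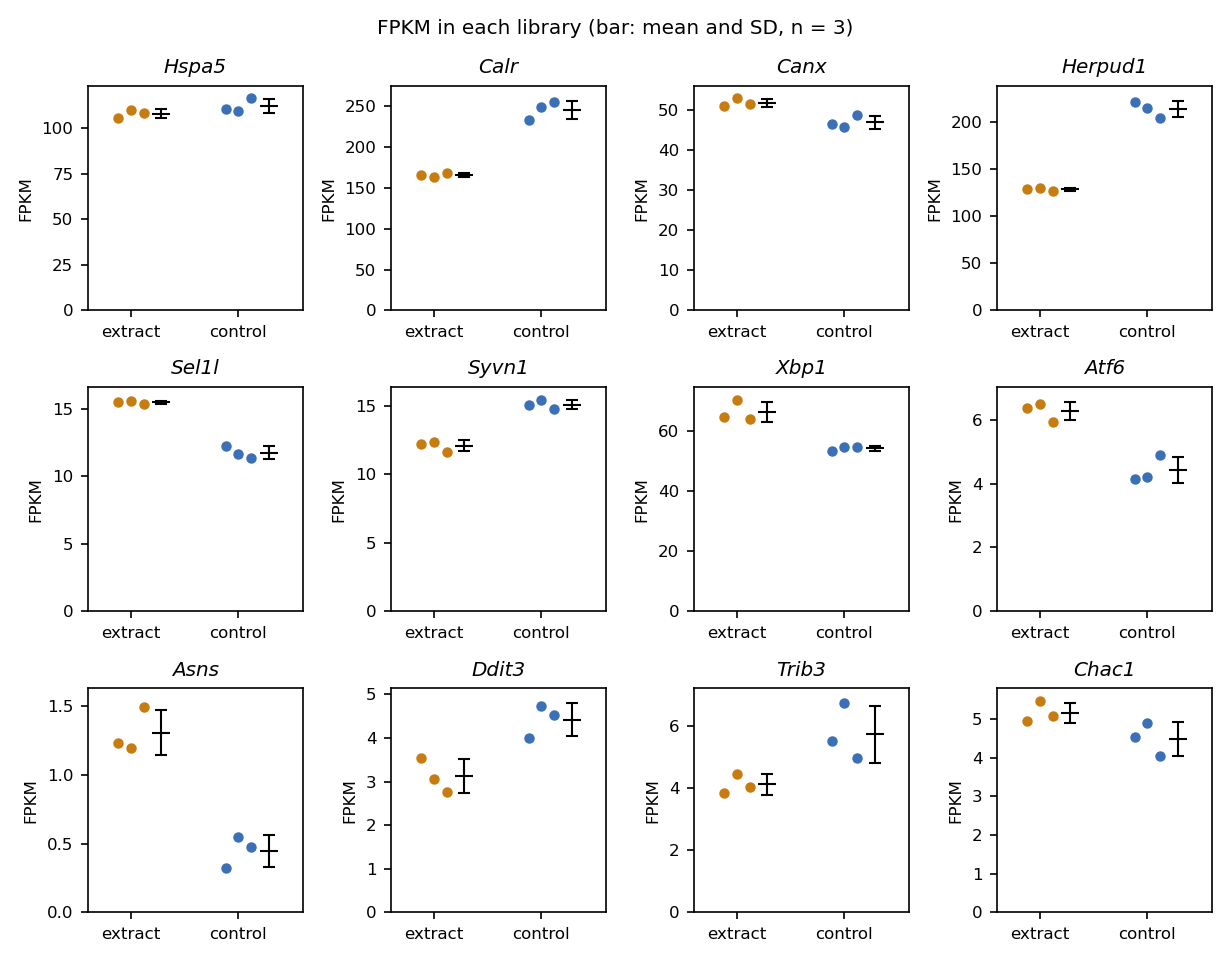
FPKM of 12 of the genes in each library, extract left of control, with mean and SD (n = 3 libraries). Calr and Herpud1 extract libraries lie below, and Sel1l, Xbp1, Atf6 and Asns above, all control libraries; Hspa5 overlaps.

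The degradation group held 3 higher, 2 lower and 2 uncalled genes, with a median log2 fold change of -0.041. Herpud1 (ENSMUSG00000031770, chr8:94386438-94395377), a ubiquitin-like membrane protein that organizes the degradation complex, had 128, 130.2 and 127 FPKM in extract libraries and 221, 215 and 204 FPKM in control libraries. All extract libraries lay below all control libraries, with a log2 fold change of -0.67 ± 0.039 (SE) with an edgeR adjusted p of 2.67e-05 and of -0.64 with the length offset. Sel1l (ENSMUSG00000020964, chr12:91806043-91849157), the scaffold of that complex, had 15.5, 15.6 and 15.3 FPKM in extract libraries and 12.3, 11.6 and 11.3 FPKM in control libraries. It rose by 0.46 ± 0.043 (SE) with an edgeR adjusted p of 0.000222, and by 0.32 with the length offset. Syvn1 (HRD1), the ubiquitin ligase that SEL1L holds, had 12.2, 12.4 and 11.7 FPKM in extract libraries and 15.1, 15.4 and 14.8 FPKM in control libraries, and fell by 0.26 ± 0.041 (SE) with an edgeR adjusted p of 0.00282. Scaffold and ligase thus went in opposite directions, in each of the alternatives.

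Edem1, a lectin that hands glycoproteins to the degradation route, averaged 21.3 FPKM in extract and 19.2 FPKM in control livers (log2 fold change 0.21, edgeR adjusted p = 0.0209). The call was lost without extract library 2 or 3 or control library 1 or 2 (adjusted p 0.0740, 0.0764, 0.0560 and 0.0811), with limma on FPKM (0.0620), and with the length offset (0.288). Derl1, a channel-forming membrane protein, was at 0.16 (edgeR adjusted p = 0.0253), and was lost without extract library 2 or 3 or control library 2 (0.0896, 0.0824 and 0.0829) and with limma on FPKM (0.0969). Limma on FPKM divided by the TMM factors kept the calls of Edem1 and Derl1. Derl2, a relative of Derl1, overlapped between groups (edgeR adjusted p = 0.632). Derl3 was low, at 0.415 ± 0.0386 FPKM in extract and 0.637 ± 0.439 FPKM in control libraries (SD, n = 3 each). Control library 3 held 1.14 FPKM of Derl3, while the other 5 libraries held 0.331 to 0.459 FPKM. The 3 extract libraries, whose pancreas acinar marker sums were close to that of control library 3, held 0.385, 0.459 and 0.402 FPKM of Derl3. Any part of acinar RNA in the Derl3 values was not tested.

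Of the ATF4 targets, Asns rose, Ddit3 and Trib3 fell, and 4 did not pass, with a median log2 fold change of 0.064. Asns (ENSMUSG00000029752, chr6:7675169-7693254), asparagine synthetase, had 1.23, 1.20 and 1.498 FPKM in extract libraries and 0.321, 0.552 and 0.473 FPKM in control libraries. The groups did not overlap, and the log2 fold change was 1.58 ± 0.23 (SE) with an edgeR adjusted p of 0.00171, or 2.99-fold. Estimated counts were 218 to 278 in extract and 56 to 112 in control libraries. Control library 3, whose pancreas acinar marker sum was close to those of the extract libraries, held 0.473 FPKM of Asns. Any part of acinar RNA in the Asns values was not tested. Over the alternatives the log2 fold change ran from 0.67, with limma on log2(FPKM + 1), to 1.74. The call held in each.

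Ddit3 (CHOP) had 3.54, 3.07 and 2.77 FPKM in extract libraries and 4.01, 4.74 and 4.53 FPKM in control libraries, a log2 fold change of -0.44 (edgeR adjusted p = 0.0350). It shares exon bases with a second annotation of the same symbol and with Mars on the other strand. The call was lost without extract library 2 or 3 or control library 2 or 3 (adjusted p 0.116, 0.113, 0.117 and 0.0751), and with the length offset (0.109). Trib3, a pseudokinase induced by CHOP and ATF4, had 3.83, 4.46 and 4.04 FPKM in extract libraries and 5.50, 6.72 and 4.95 FPKM in control libraries (log2 fold change -0.42, edgeR adjusted p = 0.0328). It was lost without extract library 1, 2 or 3 or control library 1 or 2 (0.139, 0.0668, 0.0881, 0.0551 and 0.105). Without a filter on low counts neither was called, which left Asns alone (Ddit3 0.0594, Trib3 0.0667).

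Chac1, a glutathione-degrading enzyme, averaged 5.16 FPKM in extract and 4.49 FPKM in control livers without overlap, with a log2 fold change of 0.26 (edgeR adjusted p = 0.0928). Atf3, a stress-induced factor, stood at 0.45 (adjusted p = 0.180), with overlapping groups. Sesn2, a leucine sensor, and Ppp1r15a (GADD34), which restores eIF2 to its unphosphorylated state, overlapped and had adjusted p of 0.631 and 0.552.

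Set side by side, the 21 folding and degradation genes had 5 higher and 8 lower, with a median log2 fold change of -0.071 and a range of -0.67 to 0.46. The 7 ATF4 targets had 1 higher and 2 lower, with a median of 0.064 and a range of -0.44 to 1.58. The median of all genes tested was -0.018. Of the folding and degradation genes 61.9% were called, and of the ATF4 targets 42.9%, against 26.9% of all genes tested. At 5 FPKM or more, 46.7% of genes were called. Group means of the ATF4 targets ran from 0.449 FPKM (Asns, control) to 5.72 FPKM (Trib3, control), below those of most folding and degradation genes. The difference between these gene groups, and the part of expression level in it, were not tested.

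The wider pathway was read from lists of related genes. Of all genes tested, 26.9% were called, 14.2% higher and 12.8% lower. At 5 FPKM or more it was 46.7%, 27.3% higher and 19.4% lower. The lists had 55.6% called for aminoacyl-tRNA synthetases, 47.8% for translocation and N-glycosylation, and 44% for other ATF4 targets and amino acid genes. Other degradation genes had 40%, other folding enzymes 30%, and eIF2 kinases, phosphatase and eIF2B 30%. No list was tested against all genes. Of 18 aminoacyl-tRNA synthetases, which charge tRNAs and include known ATF4 targets, 10 rose and 0 fell (unadjusted p under 0.05 with edgeR, 0 lower; DESeq2, 0; limma, 0); the median log2 fold change was 0.18. Eprs was at 0.50 (edgeR adjusted p = 9.26e-05), and Iars and Aars at 0.48 and 0.47; with the length offset 9 of the 18 were higher. Of 25 other ATF4 targets and amino acid genes, 7 rose and 4 fell, with a median of 0.19. The higher genes with the smallest p were Shmt2 at 0.26, Eif4ebp1 at 0.26 and Vldlr at 0.92 on the log2 scale. Vldlr was low, averaging 0.79 FPKM in extract and 0.44 FPKM in control libraries. The lower genes with the smallest p were Ddit4, Slc38a2 at -0.37 and Jdp2 at -1.30. Ddit4 (REDD1), a stress-induced inhibitor of mTORC1, had 5.18, 5.83 and 5.75 FPKM in extract libraries and 21.6, 22.2 and 22.1 FPKM in control libraries, and fell by 1.91 ± 0.066 (SE) with an edgeR adjusted p of 4.00e-06. Among 10 genes of eIF2 kinases, phosphatase and eIF2B, 3 rose and 0 fell (unadjusted edgeR 0, DESeq2 0, limma 0 lower), with Eif2ak2 (PKR) at 0.80 (edgeR adjusted p = 9.73e-05). The others were Ppp1r15b at 0.27 and Eif2b3 at 0.41; Eif2b3 (edgeR adjusted p = 0.0447) lost its call without extract library 1, 2 or 3 or control library 1 or 2 (0.1097, 0.1206, 0.1049, 0.0880 and 0.0700), with limma on log2(FPKM + 0.5) (0.0999), without a filter on low counts (0.0800), and with the length offset (0.0794).

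Of 20 other degradation genes, 7 rose and 1 fell, with a median of 0.11, and 6 higher and 2 lower with the length offset. Vcp, the ATPase that pulls proteins out of the ER membrane, had 38.4, 40.1 and 40.0 FPKM in extract libraries and 27.9, 25.4 and 23.8 FPKM in control libraries (log2 fold change 0.68 ± 0.060, SE; edgeR adjusted p = 0.000168). Its cofactor Nploc4 was at 0.55 (edgeR adjusted p = 0.000135). The lower gene was Ube2g2, a ubiquitin-conjugating enzyme, at -0.27 (edgeR adjusted p = 0.0189), lost without extract library 1 or 3 or control library 2 (0.0855, 0.0637 and 0.0644). Of 23 translocation and N-glycosylation genes, 4 rose and 7 fell, with a median of 0.0063; Sec61g fell by 0.55, and Srpr rose by 0.33. Of 20 other folding enzymes, 3 rose and 3 fell, with Fkbp2 at -0.40 and Txndc5 at 0.25.

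**Figure D5:**
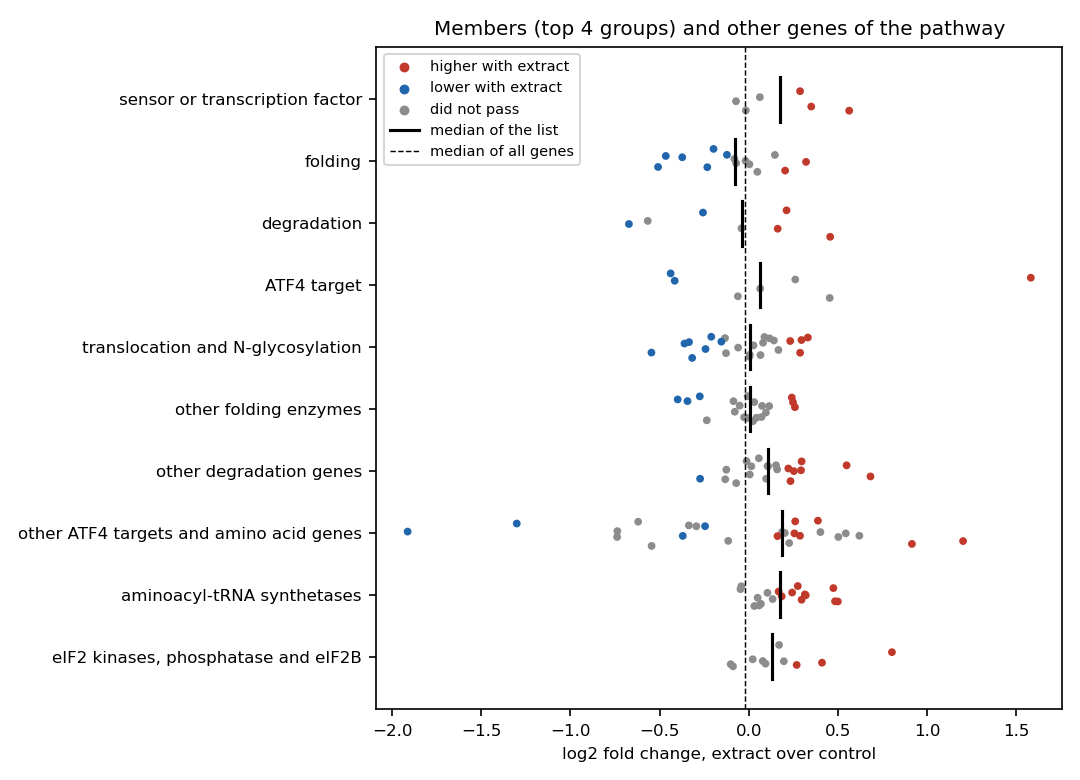
Log2 fold changes, extract over control, for the 4 groups of listed genes (top) and the 6 wider lists. Dots are genes, colored by call; bars are list medians and the dashed line is the median of all genes (-0.018). The aminoacyl-tRNA synthetases have a median of 0.18 and no gene called lower.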

How the data were processed

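Polyadenylated RNA of mouse liver was used, in 3 extract and 3 control libraries. The deposited table gives estimated counts and FPKM per gene, per the file headers. Cutadapt 1.9, edgeR, StringTie 1.3.4d and HISAT2 2.0.4 are listed, without roles or settings, in the submitters' processing notes. No build is stated in the labels or headers; 99.7% of gene IDs are in GENCODE M21 on GRCm38, and gene coordinates are the table's. The estimated counts deposited by the authors are whole numbers whose low values peak at 4 (6292 entries, 5334 at 1), so a few counts may be 1 fragment. The 6 per-sample columns that match no sample were not used. Libraries were grouped by the labels.

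Counts were tested with edgeR 4.0.16 (R 4.3.3; filterByExpr, TMM, quasi-likelihood, two-sided, Benjamini-Hochberg, threshold 0.05). Alternatives used DESeq2 1.42.0, limma 3.58.1 on log2(FPKM + 0.5), and other filters, scalings and left-out libraries; a length offset was added after seeing the data. The steps were tested on simulated counts, with fewer changed genes than were called here. There edgeR recovered 58% of log2 changes of 1 and 80% of log2 changes of 2. False calls were 8% of calls with edgeR, 27.1% with DESeq2, 8.15% with limma and 7.38% with the length offset. The simulated counts held no length trend, so they cannot show how the length offset acts on these libraries. All 34 genes are named; of each wider list, up to 3 higher and 3 lower genes with the smallest p could be. The genes, lists and alternatives were chosen with earlier results of these data known.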

Additional observations from a re-analysis of the deposited data

How the results depend on the processing

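Across 17 alternatives, 10 of the 19 called genes were called the same way in each (Calr, Canx, Dnajb9, Creld2, Herpud1, Sel1l, Syvn1, Asns, Atf6, Xbp1), and no called gene changed direction. Of the 15 not called, Hsp90b1, Hyou1, Dnajc3 and Atf4 were called in at least 1 alternative. Leaving out each library in turn gave 3237 to 4706 genes called (4870 with all), 11 to 17 of the 34 (19), 7 to 12 folding and degradation genes (13) and 1 to 2 ATF4 targets (3). The lowest counts of the 34 were without extract library 2 (11), extract library 3 (12) and control library 2 (12). Without a filter on low counts 1 ATF4 target was called; the cause was not tested.

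The median log2 fold change ran from -0.13 to -0.027 for folding and degradation genes and from 0.0027 to 0.11 for ATF4 targets. No pairing by the replicate numbers in the titles was visible: same-numbered libraries had deviations correlated at -0.117, -0.0282 and -0.0895. Libraries of different numbers were correlated at -0.0694 to 0.153. With 3 libraries a group, such values cannot show whether the libraries were paired. With the replicate number as a block, 3746 genes and 14 of the 34 were called, 8 higher and 6 lower. Estimated counts of 43 to 148 for Derl3, and 3 libraries a group, limit what small or low changes can show.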

Other observations

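Ratios within a library do not depend on its scaling, but they can follow the length trend described above. In each pair below the gene with the longer transcript was the relatively higher one in extract libraries. Longest transcripts were 2184 nucleotides for Calr and 4281 for Canx, 6300 for Sel1l and 4080 for Syvn1, and 1952 for Herpud1 and 3222 for Hsp90b1. The part of length in the ratios was not tested. Calr over Canx, in FPKM, was 3.25, 3.08 and 3.25 in extract libraries and 5.02, 5.44 and 5.24 in control libraries. Sel1l over Syvn1 was 1.26, 1.26 and 1.31 in extract libraries and 0.814, 0.756 and 0.768 in control libraries. Herpud1 over Hsp90b1 was 0.878, 0.880 and 0.895 in extract libraries and 1.38, 1.36 and 1.28 in control libraries. These pairs were chosen after their values were seen, and show unequal change, not which gene of a pair changed.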
